A study of Mus musculus with 12 samples.

Results

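Membrane carriers that move sugars, amino acids, monocarboxylates such as lactate, and related small solutes were followed in 2 fractions of keratinocytes sorted from mouse skin. The genes were chosen by a rule on their names, set with earlier results of these data known. Every gene whose symbol in the array's annotation began with Slc1a, Slc2a, Slc3a, Slc5a, Slc6a, Slc7a, Slc16a, Slc36a, Slc38a or Slc43a, followed by a digit, was taken, which gave 101 of the 18193 genes measured. Each gene was read from 1 probe set, the one with the highest mean over the 12 arrays, and the 101 genes had 191 probe sets in all. The prefix also takes in 4 genes that are not carriers themselves, the opposite-strand genes Slc7a6os, Slc6a19os and Slc36a1os and the pseudogene Slc2a4rg-ps, and none of these passed the test below.

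The CD34+ group held 6 arrays of keratinocytes that magnetic sorting (MACS) had retained for CD34, a glycoprotein on cells of the bulge, the part of the hair follicle where slow-cycling epithelial stem cells reside. The CD34- group held 6 arrays of the keratinocytes without it. Both came from skin of mice labelled C57 DBA, with no treatment or age given in the sources used here. Per the labels each of 3 isolations pooled 6 or more mice and each RNA went onto 2 Affymetrix Mouse 430 2.0 arrays, so the 6 arrays of a fraction carry 3 RNA samples. Which arrays share an RNA is not stated, so the p-values count them as separate and measure in part technical spread.

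Glucose enters most cells down its gradient through the Slc2a family, while Slc5a carriers couple sugars and other solutes to sodium. Large neutral amino acids cross through light chains of the Slc7a family that need a heavy chain of the Slc3a family to reach the membrane, and sodium-coupled carriers of the Slc1a, Slc6a and Slc38a families concentrate glutamine, alanine, serine and other amino acids. Several Slc16a members export or import lactate and pyruvate with a proton, and members of the Slc36a and Slc38a families sit on lysosomes, where they take part in telling the growth kinase complex mTORC1 that amino acids are present.

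Sort and quality measures of the arrays bear on what follows. The sort marker Cd34 was 6.92 higher on the log2 scale in CD34+ arrays, all 6 bulge markers looked at were higher, and Krt5, Krt14 and Itga6, basal keratinocyte genes among the 4 of 6 keratinocyte markers called, were lower (log2 fold changes -1.04, -1.37 and -0.82, limma adjusted p 0.00123 or less). Lists of other cell types moved with the fraction too. Of 6 T cell markers measured, 6 were lower in CD34+ arrays, with the log2 of their summed level at 8.23 to 9.61 in CD34+ and 10.55 to 11.42 in CD34- arrays. Of 6 Langerhans and myeloid markers 4 were lower (8.42 to 8.68 in CD34+ against 9.06 to 9.92 in CD34- arrays), and of 6 fibroblast markers 4 were higher (8.49 to 10.49 in CD34+ against 6.37 to 7.90 in CD34- arrays). Of 6 melanocyte markers 1 was higher and 1 lower, of 4 sebaceous markers 1 was lower and of 4 smooth muscle markers 1 was higher, while 5 endothelial and 4 skeletal muscle markers did not pass. Actb has control probe sets at either end of its transcript, and the difference of the 3' from the 5' one, which grows where RNA is short, was 4.54 ± 0.66 in CD34+ and 2.48 ± 0.49 in CD34- arrays (± SD, 6 arrays each, two-sided exact permutation p = 0.00216, the smallest that 924 splits can give). The SD of all values on an array was smaller for CD34+ arrays 1, 3 and 5 (1.93 to 2.08) than for the other CD34+ arrays (2.21 to 2.27) and the CD34- arrays (2.19 to 2.32), so that results are given below without them where that changes the call. The part these features play in the transporter results was not tested. In a bulk sample, fewer cells of a type and less RNA per cell cannot be told apart.

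Of the 101 transporter genes, 27 passed the test, 10 higher and 17 lower in CD34+ arrays (limma, two-sided, p adjusted by Benjamini-Hochberg across the 18193 genes, threshold 0.05). Among all 18193 genes 26.1% passed, 7.99% higher and 18.1% lower, so the share of transporters called was near that of all genes. The median log2 fold change came to 0.098 over the 101 genes and 0.040 over all genes. At least 2-fold differences were seen in 7 of the lower and 1 of the higher genes, 8 in all, against 4.67% and 1.98% of all genes, 6.65% in all. Arrays of the fractions did not overlap for 9 of the 101 genes, against 12.9% of all genes. Calls of the lower genes ranged from 1.23-fold to 5.22-fold and those of the higher genes from 1.18-fold to 2.51-fold. Of the 27 genes, 10 kept their call under every other setting run (22, or 21 for genes with a mean under 5, the 2-fold threshold not counted), 8 of them lower and 2 higher, and these were Slc16a14, Slc6a4, Slc16a9, Slc2a12, Slc16a10, Slc6a2, Slc7a5 and Slc1a3 among the lower and Slc7a8 and Slc38a6 among the higher genes.

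**Figure D1:**
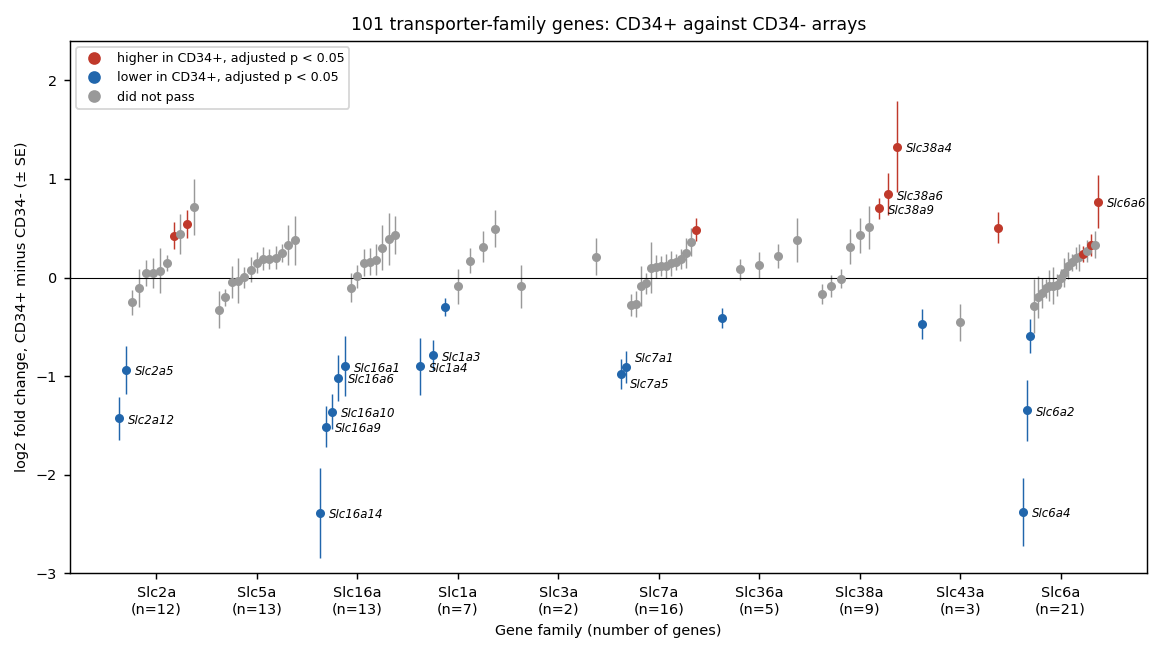
Log2 fold change (CD34+ minus CD34-, ± SE) of each of the 101 genes, by gene family along the horizontal axis, with red for genes higher in CD34+ arrays, blue for lower and grey for genes that did not pass. The 5 called Slc16a genes are all lower and the 3 called Slc38a genes are all higher, while 0 of 13 Slc5a genes passed. Over all 18193 genes 18.1% were lower and 7.99% higher.

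Other settings moved the balance of higher and lower calls. A further quantile normalization gave 12 higher and 16 lower transporter genes (11.4% and 13.9% of all genes), and median centring 5 and 19 (4.97% and 20.8%). Median centring ended the calls of Slc2a2, Slc38a4, Slc6a17, Slc6a6 and Slc6a7, which are 5 of the 10 higher genes. A block for the array number gave 9 and 17 (8.09% and 19.4%), and a filter for a mean of 5 or more gave 3 and 16 of 42 genes left (7.73% and 31.4%). A random block for arrays 1-2, 3-4 and 5-6 gave 17 and 17 (11.4% and 21.1%). The consensus correlation within that block was -0.16, so arrays so grouped were no more alike than others of their fraction. Neither that block nor means of such arrays can therefore be taken to allow for shared RNA. With means of arrays 1-2, 3-4 and 5-6 in place of single arrays, Slc16a1, Slc1a5, Slc2a5, Slc38a4, Slc43a2, Slc6a17 and Slc6a19 did not pass.

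The families differed in which way their called genes went, although no difference between families was tested. Among all genes 18.1% were lower and 7.99% higher. The median log2 fold change of a whole family was 0.015 for Slc16a, -0.090 for Slc1a and 0.43 for Slc38a, against 0.040 over all genes. Slc16a had 5 lower and 0 higher of 13 genes, Slc1a had 3 lower and 0 higher of 7, and Slc38a had 3 higher and 0 lower of 9. Slc7a had 1 higher and 2 lower of 16, Slc2a 2 higher and 2 lower of 12, Slc6a 3 higher and 3 lower of 21, and Slc43a 1 higher and 1 lower of 3. In Slc36a 1 of 5 was lower. Neither of the 2 heavy chains of Slc3a passed, and of 13 Slc5a genes 0 passed. A further probe set did pass for Slc5a2 (0.44, adjusted p = 0.0249) and for Slc5a9 (-0.88, adjusted p = 0.0251, limma across all probe sets). Both genes were named after their values were seen.

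The sequences before the gene starts were searched for short motifs in the 250 bases upstream, on both strands, from RefSeq windows of build GRCm38.p6 that covered 74 of the 101 genes in 97 windows. Windows were at hand for 7 of the 10 genes called higher and 13 of the 17 called lower, so the other called genes were not searched. CACGTG, the E-box bound by MYC and related factors, lay in 12 of the 97 windows (12.4%) and in 6.02% of 32851 windows of the same length over all genes. Of the 12 transporter genes that hold it, 2 were called lower, Slc16a1 and Slc36a1, and 0 higher. The others were not called, and among all genes 18.1% were lower and 7.99% higher. TGACTCA, bound by AP-1, lay in 7 windows of 7 genes (7.22%, against 4.46% of all). Of these genes Slc7a1, by its first window, was called lower, Slc6a17 was called higher, and the others were not called. TGATGNAA, the pattern of the ATF4 amino acid response element, lay in 4 windows (4.12%, against 3.45% of all), none of them of a called gene. Each window shown with a match holds 1 kind of motif, and a second Slc7a1 window, not shown, holds none. These matches describe letters and not bound sites. Below are windows of 3 called genes with a match, in capitals, and of Slc16a10 and Slc38a9, which hold none of the 3 motifs there and had the smallest adjusted p of the lower and of the higher genes.
Slc7a1, chr5:148399905-148400154, minus strand: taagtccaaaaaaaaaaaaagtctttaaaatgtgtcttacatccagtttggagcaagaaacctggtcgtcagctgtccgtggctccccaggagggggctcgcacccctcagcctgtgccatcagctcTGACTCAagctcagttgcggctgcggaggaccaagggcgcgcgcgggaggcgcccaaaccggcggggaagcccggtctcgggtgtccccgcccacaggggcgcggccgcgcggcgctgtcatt
Slc16a1, chr3:104638414-104638663, plus strand: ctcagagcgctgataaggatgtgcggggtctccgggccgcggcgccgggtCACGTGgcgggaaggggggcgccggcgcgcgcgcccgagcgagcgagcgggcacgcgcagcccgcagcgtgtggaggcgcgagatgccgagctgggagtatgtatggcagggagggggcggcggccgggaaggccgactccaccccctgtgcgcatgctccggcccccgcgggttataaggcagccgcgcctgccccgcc
Slc36a1, chr11:55204090-55204339, plus strand: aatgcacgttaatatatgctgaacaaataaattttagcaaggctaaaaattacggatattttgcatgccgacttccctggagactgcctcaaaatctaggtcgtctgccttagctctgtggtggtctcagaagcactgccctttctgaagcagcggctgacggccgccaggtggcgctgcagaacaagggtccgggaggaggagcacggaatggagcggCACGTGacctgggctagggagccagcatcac
Slc16a10, chr10:40142255-40142504, minus strand: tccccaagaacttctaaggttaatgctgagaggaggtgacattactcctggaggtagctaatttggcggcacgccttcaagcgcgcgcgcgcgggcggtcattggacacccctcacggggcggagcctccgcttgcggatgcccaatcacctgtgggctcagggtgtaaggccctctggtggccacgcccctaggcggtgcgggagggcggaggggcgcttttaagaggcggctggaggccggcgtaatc
Slc38a9, chr13:112660516-112660765, plus strand: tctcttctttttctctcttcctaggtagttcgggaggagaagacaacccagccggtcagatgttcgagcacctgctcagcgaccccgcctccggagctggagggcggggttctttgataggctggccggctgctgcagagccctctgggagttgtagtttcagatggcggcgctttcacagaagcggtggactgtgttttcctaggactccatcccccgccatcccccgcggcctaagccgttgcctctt
The windows are given 5′ to 3′ on the gene's own strand and end at the base before the annotated start. CG pairs, which are dense in promoters of widely used genes, numbered 21 in the Slc7a1 window, 37 in that of Slc16a1, 12 in that of Slc36a1, 21 in that of Slc16a10 and 15 in that of Slc38a9. The median was 8 over the windows of transporter genes and 6 over all windows.

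Among the sugar carriers, Slc2a1, the main glucose transporter of keratinocytes, did not pass with 12 arrays. It read 9.13, 9.72, 8.55, 9.83, 8.49 and 9.37 on CD34+ arrays 1 to 6, against 8.78, 8.94, 8.90, 9.44, 9.29 and 9.31 on CD34- arrays 1 to 6 (log2 RMA values). The fractions overlapped, and CD34+ arrays 3 and 5 were the lowest of the 12. Its log2 fold change came to 0.070 (95% interval -0.43 to 0.57, limma adjusted p = 0.832), an interval within 2-fold. Without CD34+ arrays 1, 3 and 5 it was 0.53 higher (adjusted p = 0.0454), and after median centring it was -0.031. Another of its probe sets was lower in CD34+ arrays with all 12 (-0.74, adjusted p = 0.0436 across all probe sets) and 1 more did not pass (-0.16, adjusted p = 0.685), so that the readings of Slc2a1 differ between its probe sets.

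Slc2a12, a glucose transporter of insulin-responsive tissues, fell in CD34+ cells. It read 6.16, 6.69, 6.80, 7.60, 6.84 and 7.35 on the CD34+ arrays, against 8.12, 7.86, 8.39, 8.63, 8.32 and 8.70 on the CD34- arrays. Every CD34+ array lay below every CD34- array, and the mean was 6.91 ± 0.51 in CD34+ and 8.34 ± 0.31 in CD34- arrays (± SD, 6 arrays each). The log2 fold change came to -1.43 (SE 0.22, limma adjusted p = 0.000393), and its further probe set was at -0.85 (adjusted p = 0.00189 across all probe sets). Slc2a5, the fructose transporter, was lower as well at 6.10 ± 0.57 in CD34+ against 7.04 ± 0.35 in CD34- arrays (log2 fold change -0.94, limma adjusted p = 0.0117). Its arrays overlapped slightly, and it did not pass after a further quantile normalization (adjusted p = 0.0790) or with means of arrays 1-2, 3-4 and 5-6 (adjusted p = 0.0583).

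Slc2a3, a glucose transporter of high affinity best known from neurons, was 0.71 higher without passing (limma adjusted p = 0.0754). Its values were 4.24 to 6.08 in CD34+ and 3.97 to 4.87 in CD34- arrays. It passed without CD34+ arrays 1, 3 and 5, at 1.25 (adjusted p = 0.00385), and its interval with 12 arrays reached past 2-fold (0.11 to 1.32), the 1 such interval among the 74 genes that did not pass. Another of its probe sets passed with 12 arrays (0.80, adjusted p = 0.00689 across all probe sets), while 2 more did not (0.13 and -0.025).

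A further pair of sugar or polyol carriers was called higher at the low end of the scale. The scale's low end was marked by the control probe sets named Trpn, which read 2.31 to 2.95 over the 12 arrays. Slc2a13, a myo-inositol carrier, averaged 3.28 ± 0.32 in CD34+ and 2.74 ± 0.14 in CD34- arrays (log2 fold change 0.54, limma adjusted p = 0.0128). Slc2a2, best known from liver and pancreatic beta cells, averaged 3.19 ± 0.27 in CD34+ and 2.76 ± 0.20 in CD34- arrays (0.43, adjusted p = 0.0357). In CD34- arrays the means of both lay within the range of the controls, so their folds may be compressed. The low end itself also stood higher in CD34+ arrays. The 5th percentile of an array's values was 2.55 ± 0.066 in CD34+ and 2.49 ± 0.026 in CD34- arrays (± SD, two-sided exact permutation p = 0.0368). What this adds to calls of higher genes at a low level was not tested. Neither Slc2a13 nor Slc2a2 passed once CD34+ arrays 1, 3 and 5 were left out (limma adjusted p = 0.0573 and 0.249). Slc2a2 also lost its call when 1 of CD34+ arrays 1, 3, 5 and 6 or CD34- arrays 1, 2, 3 and 5 was left out, with adjusted p up to 0.0802. Slc5a1, the sodium-glucose carrier of the gut, did not pass (-0.32, 95% interval -0.73 to 0.078, adjusted p = 0.207).

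Of 22 genes of glycolysis and pyruvate fate measured, 9 were lower and 2 higher, with a median log2 fold change of -0.43. Among all genes 18.1% were lower and 7.99% higher, and among genes with a mean of 5 or more, tested by themselves, 31.4% and 7.73%. Once CD34+ arrays 1, 3 and 5 were left out, 6 of the 22 were lower and 3 higher (median -0.16), against 10.4% and 8.81% of all genes. Without these arrays no share was taken among genes with a mean of 5 or more, so that comparison does not allow for level. Hk2, a hexokinase that traps glucose in the cell, was higher by 1.62 (limma adjusted p = 0.00234), while the phosphofructokinase subunit Pfkl (-1.50), lactate dehydrogenase Ldha (-1.03) and the mitochondrial pyruvate carrier subunit Mpc1 (-1.03) were lower, and without CD34+ arrays 1, 3 and 5 Mpc1 did not pass (adjusted p = 0.122). Of 15 genes of the hypoxia response 6 were lower and 1 higher, Epas1 (-1.33) being lower and Ndrg1 (1.29) higher, with a median of -0.43, and 5 lower and 2 higher without these arrays (median -0.28). The shares over all genes just given apply to this list and to those below.

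The monocarboxylate family held the most called genes in 1 direction. Slc16a10, which lets aromatic amino acids leave cells, read 5.79, 5.79, 5.98, 5.42, 5.85 and 6.58 on the CD34+ arrays, against 7.08, 7.0, 7.20, 7.10, 7.52 and 7.66 on the CD34- arrays. The fractions did not overlap, and the log2 fold change came to -1.36 (SE 0.18, limma adjusted p = 0.000115, the smallest adjusted p among the 101 genes). Of its 3 other probe sets 1 was lower too (-1.37) and 2 did not pass (-0.26 and -0.075).

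Slc16a9, tied in human genetics to carnitine levels, read 5.97, 6.64, 6.76, 7.49, 6.36 and 6.70 on the CD34+ arrays, against 8.29, 7.87, 8.15, 8.61, 7.91 and 8.16 on the CD34- arrays. No CD34+ array reached the lowest CD34- array. Its log2 fold change came to -1.51 (SE 0.21, limma adjusted p = 0.000194), and of 2 further probe sets 1 was lower too (-1.19) and 1 did not pass (-0.047). Slc16a14, a member whose cargo is poorly known, had the largest change of the 101 genes. It read 7.36, 6.93, 4.78, 6.67, 6.47 and 7.76 on the CD34+ arrays, against 9.65, 9.18, 9.46, 9.52, 8.91 and 7.54 on the CD34- arrays. The overlap came from CD34- array 6, the lowest of its group, and the log2 fold change came to -2.38 (SE 0.46, limma adjusted p = 0.00177). Another Slc16a14 probe set did not pass (-0.59, adjusted p = 0.0934 across all probe sets).

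**Figure D2:**
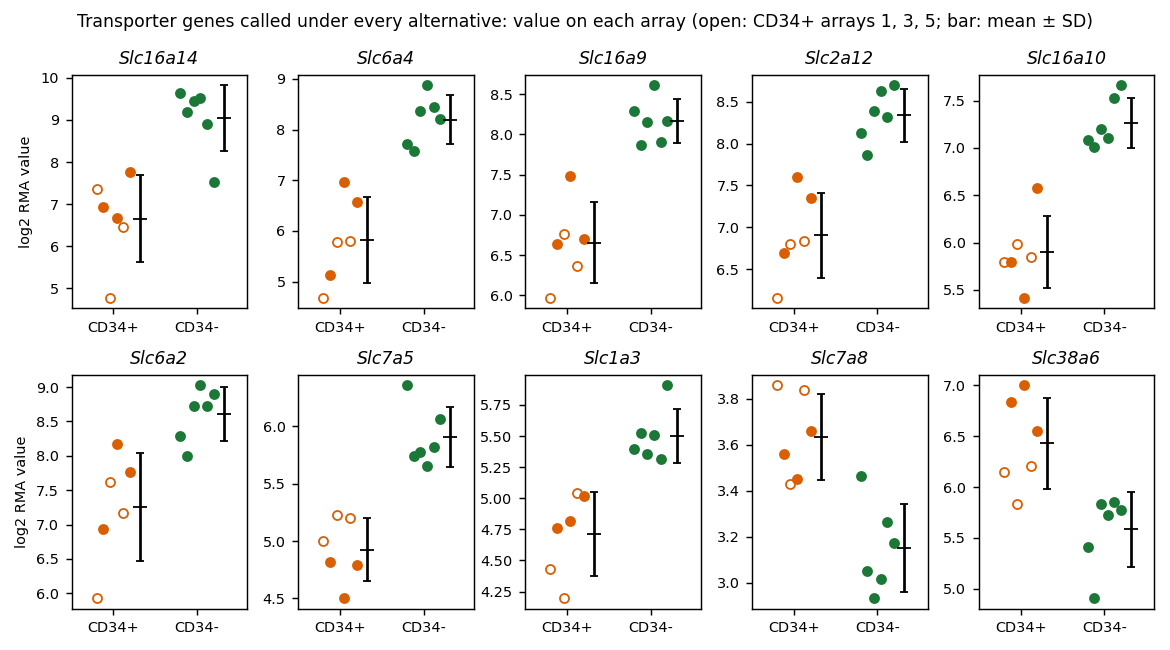
Log2 RMA value on each array for the 10 genes that kept their call under every alternative, with CD34+ arrays left in orange, CD34- arrays right in green, open points for CD34+ arrays 1, 3 and 5, and bars for the mean ± SD (n = 6). The first 8 panels are lower in CD34+ arrays and the last 2, Slc7a8 and Slc38a6, are higher, and the vertical axes differ between panels.

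Slc16a6, which exports ketone bodies from the liver in zebrafish, averaged 4.91 ± 0.46 in CD34+ and 5.93 ± 0.43 in CD34- arrays (log2 fold change -1.02, limma adjusted p = 0.00513). It did not pass once CD34+ arrays 1, 3 and 5 were left out (-0.71, limma adjusted p = 0.0774). Slc16a1, the widespread lactate carrier, read 4.90, 5.67, 4.20, 4.06, 4.16 and 4.60 on the CD34+ arrays, against 5.91, 6.19, 4.71, 4.89, 5.76 and 5.53 on the CD34- arrays. The fractions overlapped, with CD34+ array 2 above CD34- arrays 3, 4 and 6, and the change of -0.90 passed narrowly (SE 0.30, limma adjusted p = 0.0426). That call was lost when 1 of CD34+ arrays 1, 3, 4, 5 and 6 or CD34- arrays 1, 2, 5 and 6 was left out (adjusted p up to 0.0909), and once CD34+ arrays 1, 3 and 5 were left out (-0.72, limma adjusted p = 0.238). The lactate exporter Slc16a3 (0.18, adjusted p = 0.392) and Slc16a4 (0.30, adjusted p = 0.329) did not pass, and their 95% intervals, -0.16 to 0.52 and -0.19 to 0.79, lay within 2-fold. Slc16a3 averaged 3.83 in CD34+ and 3.65 in CD34- arrays, a low level at which folds may be compressed. Bsg, the chaperone that carries Slc16a1 and Slc16a3 to the membrane, was lower by the same test (-0.90, adjusted p = 0.0410), though not once CD34+ arrays 1, 3 and 5 were left out (-0.27, limma adjusted p = 0.468). Of the 14 partners and regulators of transporters measured, Bsg among them, 5 were lower and 0 higher, with a median of -0.46, and 2 were lower and 0 higher without CD34+ arrays 1, 3 and 5 (median -0.096). Stxbp3 (-0.82) and Tbc1d1 (-0.62), which act in the traffic of glucose transporters, and Nptn (-0.71), a relative of Bsg, were among them, and Nptn missed the threshold without these 3 arrays (limma adjusted p = 0.198).

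Among carriers of large neutral and cationic amino acids, 1 light chain was lower, another was higher and their heavy chain did not pass, by the probe set used for each. Slc7a6 of the same family did not pass (-0.087, limma adjusted p = 0.763). Its further probe set was lower (-0.92, adjusted p = 0.00575 across all probe sets), and the gene was named after its values were seen. Slc3a2, the heavy chain shared by several light chains, read 8.43 to 9.82 in CD34+ and 9.02 to 9.49 in CD34- arrays and did not pass (-0.091, 95% interval -0.55 to 0.37, limma adjusted p = 0.762). Its sign was positive after a further quantile normalization (0.19) and once CD34+ arrays 1, 3 and 5 were left out (0.33, limma adjusted p = 0.125). Slc7a5, the light chain that brings in leucine and other large neutral amino acids, read 5.00, 4.82, 5.22, 4.50, 5.20 and 4.79 on the CD34+ arrays, against 6.35, 5.74, 5.77, 5.66, 5.82 and 6.07 on the CD34- arrays. All CD34+ arrays lay below all CD34- arrays, at a log2 fold change of -0.98 (SE 0.15, limma adjusted p = 0.000388), and the array ties 1 probe set to this gene.

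Slc7a8, a second light chain for neutral amino acids, was called the other way at a low level. It read 3.86, 3.56, 3.43, 3.45, 3.84 and 3.66 on the CD34+ arrays, against 3.46, 3.05, 2.93, 3.02, 3.26 and 3.17 on the CD34- arrays. Only CD34- array 1 reached into the CD34+ range, and the log2 fold change came to 0.48 (SE 0.12, limma adjusted p = 0.00801). Slc7a11, the cystine carrier, averaged 2.99 ± 0.27 in CD34+ and 2.84 ± 0.14 in CD34- arrays, near the Trpn controls, and did not pass (0.14, adjusted p = 0.406).

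Slc7a1, the main carrier of arginine and lysine in many cells, read 8.24, 8.17, 8.36, 7.70, 8.58 and 8.32 on the CD34+ arrays, against 9.14, 8.71, 9.58, 9.32, 9.03 and 9.05 on the CD34- arrays. The fractions did not overlap, and the change was -0.91 (SE 0.16, limma adjusted p = 0.00106). It missed the threshold after a further quantile normalization (-0.61, adjusted p = 0.0605). A further probe set was lower as well (-0.62, adjusted p = 0.0106 across all probe sets), and one near the low end did not pass (0.015). Slc43a2, which lets branched-chain and aromatic amino acids through without sodium, passed at -0.47 (adjusted p = 0.0357). A further Slc43a2 probe set was lower too (-0.62, adjusted p = 0.00835 across all probe sets), and another near the low end did not pass (-0.078). The call of Slc43a2 was lost after quantile normalization (-0.24, adjusted p = 0.229) and once CD34+ arrays 1, 3 and 5 were left out (limma adjusted p = 0.203). It was also lost when 1 of CD34+ arrays 1, 3, 4 and 5 or CD34- arrays 3, 4, 5 and 6 was left out (adjusted p up to 0.0851). Its relative Slc43a1 did not pass (-0.45, adjusted p = 0.0898). Slc43a3, which takes up purine nucleobases, was called higher at the low end, with 3.13 ± 0.39 in CD34+ and 2.62 ± 0.12 in CD34- arrays (0.50, adjusted p = 0.0298). It did not pass once CD34+ arrays 1, 3 and 5 were left out (limma adjusted p = 0.0903), nor without CD34+ array 1 or CD34- array 3, 4 or 5 alone (adjusted p up to 0.0655).

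The sodium-coupled glutamate and neutral amino acid carriers of Slc1a were lower where they passed. Slc1a3, a glutamate carrier of glia, read 4.43, 4.76, 4.20, 4.82, 5.04 and 5.02 on the CD34+ arrays, against 5.40, 5.52, 5.35, 5.51, 5.31 and 5.91 on the CD34- arrays. No values overlapped, and the log2 fold change came to -0.79 (SE 0.16, limma adjusted p = 0.00222). Of its 5 other probe sets 2 were lower (-0.64 and -0.34) and 3 did not pass. Slc1a4, a carrier of alanine, serine and cysteine, read 5.36, 7.14, 6.11, 7.36, 6.31 and 6.96 on the CD34+ arrays, against 7.18, 7.17, 7.53, 7.85, 7.53 and 7.38 on the CD34- arrays. Its lowest readings were those of CD34+ arrays 1, 3 and 5, and the change of -0.90 (SE 0.29, adjusted p = 0.0323) was -0.29 without them (adjusted p = 0.252). Quantile normalization also ended the call (adjusted p = 0.0518), as did the removal of 1 of CD34+ arrays 1, 3 and 5 or of CD34- arrays 3 to 6 (adjusted p up to 0.0752). Both further Slc1a4 probe sets passed with 12 arrays (-0.71 and -0.52, adjusted p = 0.00229 and 0.00550 across all probe sets). Slc1a5, the glutamine carrier of many dividing cells, was lower by a small step, at 4.81 ± 0.12 in CD34+ and 5.11 ± 0.10 in CD34- arrays (-0.30, adjusted p = 0.0247). It did not pass without CD34+ array 5 or CD34- array 4, 5 or 6 (adjusted p up to 0.0610), nor once CD34+ arrays 1, 3 and 5 were left out (limma adjusted p = 0.120).

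In the Slc38a family the called genes were higher. Slc38a9, a lysosomal protein that senses arginine for mTORC1, read 7.21, 7.15, 7.16, 7.48, 7.08 and 7.33 on the CD34+ arrays, against 6.47, 6.21, 6.53, 6.73, 6.65 and 6.63 on the CD34- arrays. No values overlapped, and the log2 fold change came to 0.70 (SE 0.11, limma adjusted p = 0.000409). The gene has 7 probe sets and they disagreed. A second was higher (1.15, adjusted p = 0.000822 across all probe sets), 1 with means of 3.88 in CD34+ and 4.20 in CD34- arrays was lower (-0.31, adjusted p = 0.0407), and the other 4 lay between -0.30 and 0.27 without passing. The mean of its 7 probe sets did not pass. Slc38a6, a neutral amino acid carrier, read 6.14, 6.84, 5.83, 7.0, 6.20 and 6.55 on the CD34+ arrays, against 5.41, 4.91, 5.84, 5.72, 5.85 and 5.78 on the CD34- arrays. CD34+ array 3 alone lay within the CD34- range, and the change was 0.84 (SE 0.21, limma adjusted p = 0.0103).

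Slc38a4 was the 1 gene called higher by 2-fold or more (1.33, SE 0.46, limma adjusted p = 0.0473), and the value came from few arrays. It read 5.76, 7.04, 3.77, 3.99, 4.28 and 4.45 on the CD34+ arrays, against 4.03, 3.13, 3.77, 3.47, 3.27 and 3.65 on the CD34- arrays. Only CD34+ arrays 1 and 2 stood well above the rest. The call was lost when 1 of CD34+ arrays 1, 5 and 6 or of the 6 CD34- arrays was left out (adjusted p up to 0.107), after quantile normalization (adjusted p = 0.0790), and once CD34+ arrays 1, 3 and 5 were left out (limma adjusted p = 0.0560). Slc38a2, the carrier that cells induce when amino acids run short, read 11.43 to 12.33 in CD34+ and 11.21 to 11.85 in CD34- arrays and did not pass with its main probe set (0.31, adjusted p = 0.201). It passed after quantile normalization (adjusted p = 0.00324) and once CD34+ arrays 1, 3 and 5 were left out (0.58, limma adjusted p = 0.0181), and a further probe set was higher with all 12 arrays (0.74, adjusted p = 0.00513 across all probe sets). Slc38a1, a glutamine carrier, did not pass (-0.085, adjusted p = 0.574), although another of its probe sets was lower (-1.14, adjusted p = 5.02e-05 across all probe sets). Slc36a1, a proton-coupled carrier of the lysosome, was lower (5.57 ± 0.17 in CD34+ and 5.98 ± 0.13 in CD34- arrays, -0.41, adjusted p = 0.00982) and did not pass once CD34+ arrays 1, 3 and 5 were left out (-0.31, limma adjusted p = 0.0700).

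Genes that sense or answer amino acid supply were counted with and without CD34+ arrays 1, 3 and 5, and the counts differed. Of 26 genes of mTORC1 amino acid sensing 8 were lower and 0 higher with 12 arrays (median -0.14), and 3 were lower and 2 higher without the 3 arrays (median -0.048). Among the 8 were Rraga (-1.62, limma adjusted p = 0.000344) and Rragc (-0.62, adjusted p = 0.0314), GTPases that bring mTORC1 to the lysosome, Tsc2 (-0.83), a brake on the pathway, and Sesn2 (-0.51), a leucine sensor. Without CD34+ arrays 1, 3 and 5 Rragc, Tsc2 and Sesn2 did not pass (adjusted p = 0.229, 0.122 and 0.193). Of 23 genes of the ATF4 response to amino acid shortage 10 were lower and 1 higher with 12 arrays (median -0.28), and 7 lower and 4 higher without the 3 (median -0.42). Phgdh (-1.32), Psph (-1.13) and Psat1 (-0.87), the 3 enzymes that make serine, were all lower. Psph and Psat1 missed the threshold without these 3 arrays (limma adjusted p = 0.0694 and 0.0593). Of 14 enzymes of glutamine, glutamate and glutathione 6 were lower and 1 higher (median -0.42), and 2 lower and 1 higher without the 3 arrays (median -0.061). Glutathione reductase Gsr (-1.78) and the aminotransferase Got1 (-1.45) passed both ways, while glutamine synthetase Glul (-1.12) and the antioxidant regulator Nfe2l2 (-0.80) passed with 12 arrays but not without the 3 (limma adjusted p = 0.0583 and 0.166). Branched-chain and aromatic amino acid enzymes had 5 lower and 1 higher of 17 (median 0.049), with Dbt (-1.21) the largest change, and 3 lower and 1 higher without the 3 arrays (median -0.019). The 8 pathway lists were chosen with earlier results of these data known. Over them, 50 of 140 genes were lower and 7 higher, with a median of -0.31. Of the 119 of these genes with a mean of 5 or more, tested among such genes, 51 were lower (42.9%) and 5 higher (4.20%), against 31.4% and 7.73% of all genes so filtered. Without the 3 arrays 30 pathway genes were lower and 13 higher.

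The neurotransmitter carriers of Slc6a held 2 of the largest falls. Slc6a4, the serotonin transporter, read 4.68, 5.13, 5.78, 6.97, 5.80 and 6.57 on the CD34+ arrays, against 7.72, 7.57, 8.36, 8.88, 8.45 and 8.22 on the CD34- arrays. Every CD34+ array was below every CD34- array, at 5.82 ± 0.86 in CD34+ and 8.20 ± 0.48 in CD34- arrays (± SD, 6 arrays each), 5.19-fold lower in CD34+ (log2 fold change -2.38, SE 0.35, limma adjusted p = 0.000292). Slc6a2, the noradrenaline transporter, read 5.93, 6.93, 7.61, 8.17, 7.16 and 7.77 on the CD34+ arrays, against 8.29, 7.99, 8.73, 9.02, 8.73 and 8.90 on the CD34- arrays. CD34+ array 4 alone reached into the CD34- range, and the change was -1.35 (SE 0.31, limma adjusted p = 0.00615). Its 3 other probe sets did not pass (-0.24, -0.16 and 0.0083). The array ties 1 probe set to Slc6a4. T cell and Langerhans markers, given above, were lower in the same arrays, and their part in these falls was not tested.

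Slc6a19, the neutral amino acid carrier of gut and kidney, was lower by 0.59 on the log2 scale (log2 fold change -0.59, adjusted p = 0.0226), and lost its call without CD34+ array 1 (adjusted p = 0.0506) and once CD34+ arrays 1, 3 and 5 were left out (limma adjusted p = 0.0939). Slc6a6, which accumulates taurine, was higher by its main probe set. It read 11.34, 11.42, 10.60, 12.23, 10.89 and 11.26 on the CD34+ arrays, against 9.81, 10.06, 10.49, 11.08, 10.81 and 10.86 on the CD34- arrays. The fractions overlapped, and the change of 0.77 passed narrowly (SE 0.27, limma adjusted p = 0.0487). Without CD34+ arrays 1, 3 and 5 it was 1.11 (adjusted p = 0.0221), but it lost its call when 1 of CD34+ arrays 1, 2, 4 and 6 or CD34- arrays 1, 2, 3, 5 and 6 was left out (adjusted p up to 0.103). Of its 3 further probe sets none passed, and 1 was at -0.64 (adjusted p = 0.0872 across all probe sets), and across all probe sets the main one did not pass either (adjusted p = 0.0537). The creatine carrier Slc6a8 did not pass (-0.082, 95% interval -0.48 to 0.31, adjusted p = 0.751). Slc6a17 (0.24, adjusted p = 0.0389) and the proline carrier Slc6a7 (0.33, adjusted p = 0.0472) were called higher by small steps. Each lost its call without any 1 of the 6 CD34- arrays or of CD34+ arrays 1, 5 and 6, and Slc6a7 also without CD34+ array 3 (adjusted p up to 0.0810 and 0.0976), and neither passed once CD34+ arrays 1, 3 and 5 were left out (limma adjusted p = 0.175 and 0.311). For Slc6a17 the arrays of the fractions did not overlap. A further Slc6a17 probe set was higher (0.33, adjusted p = 0.0187 across all probe sets), and another did not pass (0.40, adjusted p = 0.0502). Of 10 creatine, taurine and osmolyte genes measured 2 were lower, Ckmt1 (-1.40), a mitochondrial creatine kinase, and Csad (-0.63), an enzyme of taurine synthesis, and 1 was higher, the creatine synthesis enzyme Gatm (0.61), with a median of 0.10. Without CD34+ arrays 1, 3 and 5, 2 were lower and 0 higher (median 0.042). Gatm did not pass once CD34+ arrays 1, 3 and 5 were left out (limma adjusted p = 0.158).

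Without CD34+ arrays 1, 3 and 5, 19 of the 101 genes passed, 9 higher and 10 lower, against 19.2% of all genes (8.81% higher and 10.4% lower). Of the 27 genes called with 12 arrays 14 were called in the same direction, 4 higher and 10 lower, and 0 in the opposite one. Besides Slc2a1, Slc2a3 and Slc38a2, the newly called genes were Slc38a10 (0.89, adjusted p = 0.0144), a relative of the neutral amino acid carriers, and Slc36a4 (0.71, adjusted p = 0.00300), a proton-coupled amino acid carrier, both named after their values were seen. With 12 arrays Slc38a10 and Slc36a4 were at 0.51 (adjusted p = 0.103) and 0.38 (adjusted p = 0.212). Slc38a10 has 7 probe sets, which ran from -0.44 to 0.51 with 12 arrays, and none passed. A larger SD in CD34+ than in CD34- arrays was found for 83 of the 101 genes (82.2%) and for 84.2% of all genes.

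**Figure D3:**
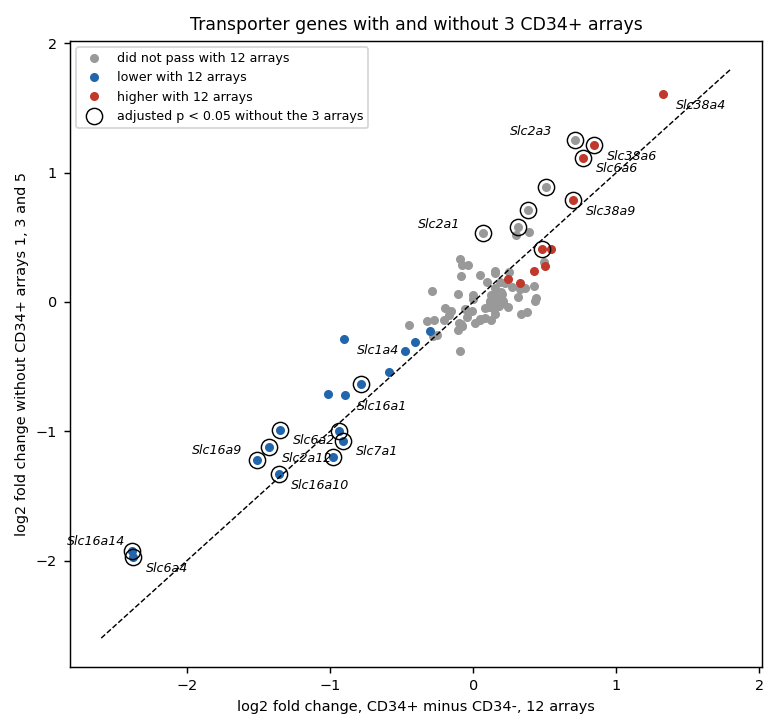
Log2 fold change (CD34+ minus CD34-) of the 101 genes with all 12 arrays on the horizontal axis and without CD34+ arrays 1, 3 and 5 on the vertical axis, with the dashed line marking equality and circles marking genes that passed without the 3 arrays. Slc16a14 and Slc6a4 stay lowest at -1.93 and -1.98, Slc1a4 moves to -0.29, and Slc2a1 and Slc2a3 lie above the line.

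Of the 101 genes 51 had more than 1 probe set. Of the 27 called genes 17 had further probe sets, and 9 of these had at least 1 that passed in the same direction. Counted singly, 11 of the 37 further probe sets passed in the same direction, 25 did not pass, and 1, of Slc38a9, passed in the opposite direction. Among the genes that did not pass, 8 had another probe set that did.

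**Figure D4:**
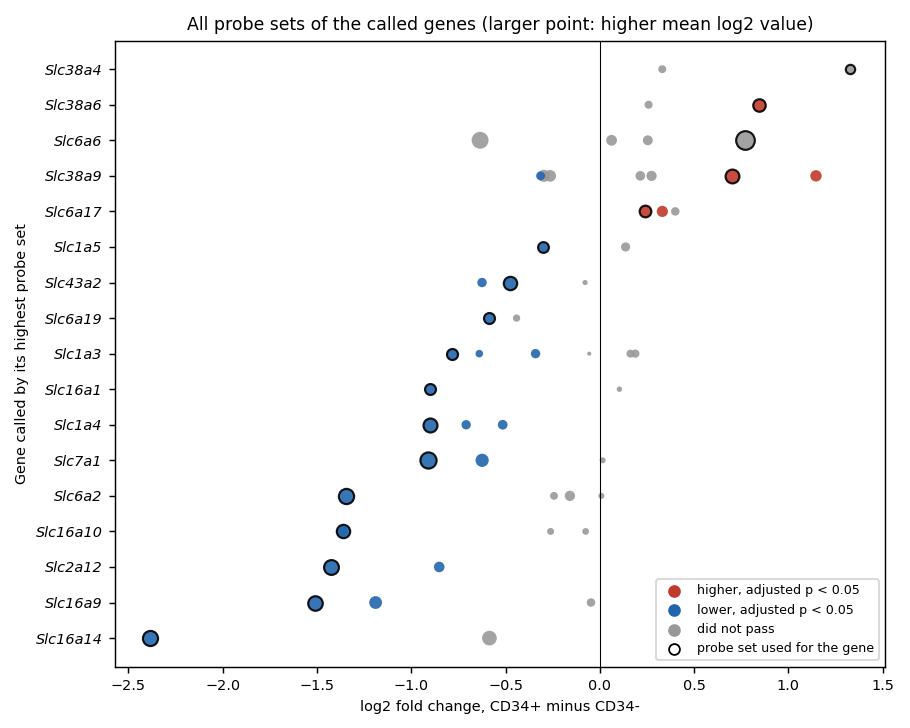
Log2 fold change (CD34+ minus CD34-) on the horizontal axis of every probe set of the 17 called genes with more than 1, a row per gene, with larger points for higher mean level and a black outline for the probe set used. Slc1a4, Slc2a12 and Slc16a9 had a further probe set lower, while those of Slc38a9 fell on both sides of 0 and the further ones of Slc6a2 did not pass.

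Among the protein-coding genes of the genome 11 pairs of the 101 genes are neighbours. At 27 of 101 genes called, so few pairs allow no reading of shared calls: both genes were called in 0 pairs and 1 gene in 3. Slc36a1 was lower beside Slc36a2 (0.085, adjusted p = 0.553), Slc6a19 was lower beside Slc6a18 (0.33, adjusted p = 0.0903), and Slc38a4 was called higher beside Slc38a2.

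The 74 genes that did not pass had log2 fold changes from -0.45 to 0.71, and for 73 of them the 95% interval lay within 2-fold. These intervals count the 6 arrays of a fraction as separate although they carry 3 RNA samples. For genes at a low level folds may be compressed, so a narrow interval does not bound the change there. Both fraction means of 7 of the 101 genes were at or under the highest Trpn reading, and none of these was called. Of the 10 genes called higher 6 had a mean over the 12 arrays under 5, against 1 of the 17 called lower. A mean of 5 or more was reached by 42 of the 101 genes and by 9876 of all 18193. Over all genes 1454 were called higher and 3296 lower, and 763 and 3105 when only genes with a mean of 5 or more were tested. The larger part of low-level genes among higher calls is thus not particular to the transporters.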

How the data were processed

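Values were log2 RMA expression values per probe set, deposited by the authors for 12 Affymetrix Mouse 430 2.0 arrays. RMA is named in the submitters' processing notes, its version and whether all arrays were normalized together are not given in the sources used here, and the table ran from 1.87 to 14.15. RMA gives no detection call, so the Trpn controls mark the low end. The number of arrays limits the precision.

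Of 45101 probe sets, 64 controls were set aside. GEO's platform annotation tied 34945 to 1 gene and 932 to several, and 9160 were unnamed here. Symbols were updated through Entrez identifiers, and none of the 101 transporter symbols changed. Per gene the probe set with the highest mean was kept. The fractions were tested by limma, version 3.58.1, under R 4.3.3 (functions lmFit, eBayes, no block, Benjamini-Hochberg over 18193 genes), checked on simulated data. Single probe sets were adjusted over 34945.

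Genes named are all transporter genes that passed and a fixed set of well-known carriers, with exceptions stated. List genes named came from the up to 4 (other cell types, 3) largest changes past the threshold in each list. Not every such list gene is named. Members and lists were chosen with earlier results of these data known. Promoter windows came from RefSeq. Alternatives were a replicate block, means and a random block of arrays 1-2, 3-4 and 5-6, 2 further scalings, a level filter, other probe set rules, eBayes with trend and robust, and arrays left out.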

Additional observations from a re-analysis of the deposited data

Results flagged for a closer look

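Among the groups of 6 arrays of the 38 transporter genes named by rule, 76 in all, 3 held an array far from its group's other arrays, and chance alone gives such an array in about 1 group in 20. Slc16a14 read 7.54 on CD34- array 6 against 8.91 to 9.65 on the other CD34- arrays. Slc1a3 read 5.91 on CD34- array 6 against 5.31 to 5.52 on the others. Slc36a1 read 5.73 on CD34- array 3 against 5.96 to 6.09 on the others. All 3 genes kept their call on leaving out each of the 12 arrays singly, with adjusted p of 0.00567, 0.00665 and 0.0268 or less.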

How the results depend on the processing

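The fit reported called 10 transporter genes higher and 17 lower. Leaving out 1 array at a time gave 4 to 13 higher and 13 to 17 lower transporter genes, 1041 to 2068 higher and 2627 to 3889 lower genes over the whole array, and 5 to 10 higher and 41 to 59 lower pathway genes. Of the 27 called genes 17 to 26 were called again, and 0 were called in the opposite direction under any alternative run. Higher transporter genes numbered 17 with a random block for arrays 1-2, 3-4 and 5-6 (consensus correlation -0.16). They numbered 5 after median centring (19 lower), 3 of 42 tested with a mean of 5 or more, and 1 at 2-fold or more. Lower ones numbered 10 without CD34+ arrays 1, 3 and 5 and 7 at 2-fold or more. A further quantile normalization gave 12 higher and 16 lower transporter genes. Over all genes 904 were higher and 3785 lower after median centring, 2075 and 2522 after quantile normalization, 763 higher with a mean of 5 or more, 361 higher and 849 lower at 2-fold or more, and 1900 lower without the 3 arrays. The median over all genes was -0.061 after median centring and 0.040 as reported (log2 fold change). Of the pathway genes, 7 higher and 50 lower as reported, quantile normalization gave 22 and 32, leaving out the 3 arrays 13 and 30, and the 2-fold threshold 2 and 13. With the array number as a replicate block, 9 transporter genes passed higher and 17 lower, with 23 of the 27 among them, and Slc1a5, Slc2a2, Slc6a17 and Slc6a7 lost their call. Deviations of same-numbered arrays from their fraction means correlated at -0.27 to 0.50, so the numbers were not taken as pairs, and in 3 of 6 cases a CD34+ array correlated best with the CD34- array of its own number.

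Signs turned only for genes that had not passed. Slc2a1 was -0.031 after median centring, -0.27 as the mean of its probe sets and -0.060 to 0.21 on leaving out single arrays. Slc3a2 was 0.19 after quantile normalization, 0.33 without the 3 arrays and -0.22 to 0.059 on leaving out single arrays. Slc6a8 was 0.17 and 0.29 under the same settings and -0.25 to 0.0012 on leaving out single arrays. Without the 3 arrays Slc7a11 was -0.055 and Slc16a3 -0.029, and after quantile normalization Slc38a1 was 0.064. The cause of these changes was not tested.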
